A study of Homo sapiens with 32 samples.

Results

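The mitochondrial import and protein quality genes described here were the GENCODE 44 protein-coding genes whose symbol starts with TOMM or TIMM, together with PAM16, DNAJC19, GRPEL1, HSPA9, HSPD1, HSPE1, PMPCA, PMPCB, LONP1, CLPP and CLPX. This rule found 38 genes among 19970 protein-coding genes, 10 TOMM genes, 17 TIMM genes and the 11 named ones, and used no measured value. The data were chromatin immunoprecipitation sequencing (ChIP-seq) of HEK293T cells, an established human embryonic kidney line, in 1 clone whose ZNF143 protein carries a degron tag that the small molecule dTAGV-1 uses to have the protein degraded. There were 32 samples in 10 groups, since each of 5 precipitations (ZNF143 through an HA tag, SP1, NRF1, YY1 and a mock) was made without treatment and after 30 minutes of 50 nM dTAGV-1. For SP1, NRF1 and YY1 these groups had 4 samples, and for ZNF143 and the mock they had 2. Every group, untreated cells included, came from the clone with tagged ZNF143, so no group had unmodified ZNF143. The labels write Nrf1 and do not spell the name out.

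Nearly all mitochondrial proteins are encoded in the nucleus, made in the cytosol and imported. They cross the outer membrane through the TOM complex, a set of receptors around a channel. Proteins with a cleavable N-terminal presequence then pass the inner membrane through the TIM23 complex, pulled in by a motor built on the mitochondrial HSP70, whereas carrier proteins of the inner membrane are escorted by small TIM chaperones to the TIM22 complex. In the matrix the presequence is removed by a peptidase, HSP60 and HSP10 help the protein to fold, and the LONP1 and CLPXP proteases degrade damaged proteins. ZNF143, SP1, NRF1 and YY1 are DNA-binding transcription factors found at many promoters, and the promoters of nuclear genes for mitochondrial proteins are textbook targets of NRF1.

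For each antibody the authors deposited 1 list of summits, the base in a called peak where signal was highest, with no value per sample or treatment. Treated and untreated cells could therefore not be compared, no replicate error was available, and read depth was unknown. On chromosomes 1 to 22 and X the lists held 16165 (ZNF143), 126181 (SP1), 39180 (NRF1) and 106578 (YY1) summits. Each summit has a score on a −log10 scale (of a p-value or a q-value), which can be compared only within its list. To set lists side by side, a summit's rank is given as the percentage of its list with a score at least as high, so a small percentage means a high score. A gene was counted as having a factor if its gene record's 5′ end had a summit at most 500 bp away, and its highest-scoring summit there is called its top summit. Offsets are distances from that 5′ end in the direction of transcription, negative upstream. Intervals are Wilson 95% intervals and cover counting error over genes, which are not replicates.

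Most import and quality genes had summits of all 4 factors at their 5′ end. SP1 and YY1 were each found at 37 of 38 genes (97.4%, 86.5 to 99.5%), beside 59.1% and 57.8% of all protein-coding genes. NRF1 was found at 36 (94.7%, 82.7 to 98.5%), beside 48.3% of all genes, and ZNF143 at 30 (78.9%, 63.7 to 88.9%), beside 31.7%. All 4 factors were present at 29 genes (76.3%, 60.8 to 87.0%), beside 28.1% of all genes. Only 4 combinations occurred. The 29 genes with all 4 were followed by 7 with SP1, NRF1 and YY1 and no ZNF143 (18.4%, near the 17.4% of all genes). These 7 were TOMM7, TOMM40L, TOMM34, TIMM10B, DNAJC19, HSPD1 and PMPCB. PMPCA had ZNF143, SP1 and YY1 without NRF1, as did 2.24% of all genes. PAM16 had no summit of any list, as did 37.3% of all genes.

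Other gene groups of the organelle had shares in the same range. Of 27 further import and quality genes outside the rule, among them the SAM complex gene SAMM50, the inner membrane insertase OXA1L and the protease AFG3L2, 21 (77.8%) had ZNF143, 25 (92.6%) had NRF1 and 20 (74.1%) had all 4 factors. Of 78 mitochondrial ribosomal protein genes (MRPL and MRPS), 60 (76.9%) had ZNF143, 68 (87.2%) had NRF1 and 58 (74.4%) had all 4. Of 48 NDUF genes, which encode subunits and assembly factors of complex I, 34 (70.8%) had ZNF143, 37 (77.1%) had NRF1 and 31 (64.6%) had all 4. The intervals of these groups overlap those of the 38 genes in every list.

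**Figure D1:**
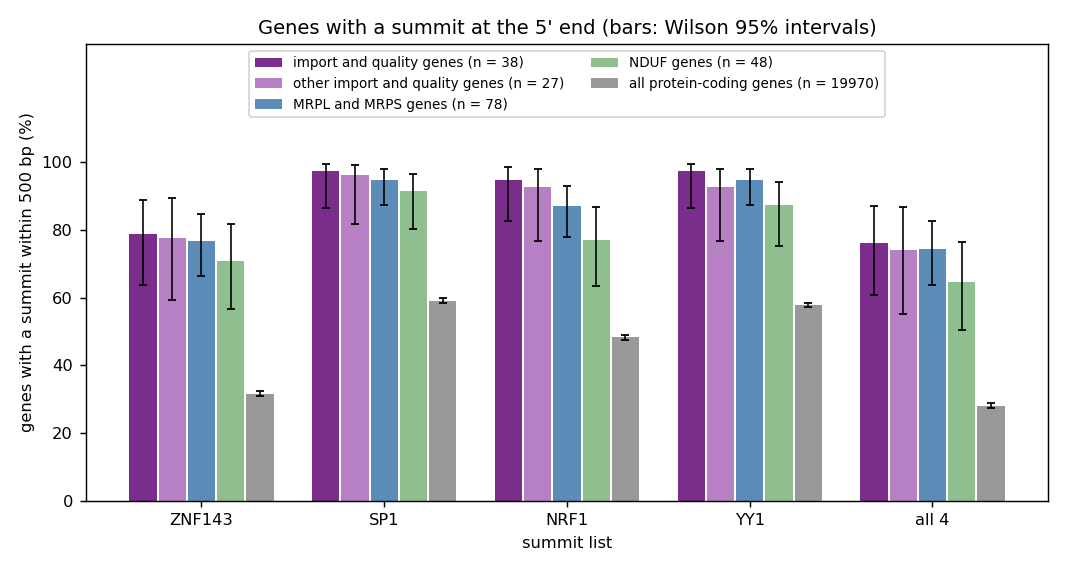
Percentage of genes with a summit within 500 bp of the 5′ end (vertical axis) for each summit list and for all 4 lists together (horizontal axis), in 5 gene groups, with Wilson 95% intervals. The 38 import and quality genes stand at 78.9% for ZNF143 and 97.4% for SP1, near the other mitochondrial groups and above the 31.7% and 59.1% of all protein-coding genes.

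The lists differ in length, and the longer ones reach further down in score. With every list cut to its 16165 highest-scoring summits, the length of the ZNF143 list, 35 of the 38 genes kept a YY1 summit, 30 an NRF1 summit and 25 an SP1 summit. The same shares over all genes were 36.01%, 40.2% and 32.6%. At this equal length 20 import and quality genes (52.6%) had all 4 factors, beside 18.1% of all genes.

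YY1 was the list in which these genes ranked highest by percentage of the list. The median rank of their top YY1 summit was 3.73% of the list, beside 10.2% for all genes with a YY1 summit, and 31 of 37 (83.8%) were within the top 10%, beside 49.3%. Mitochondrial ribosomal protein genes had a median YY1 rank of 1.37% and NDUF genes of 3.21%, so a high YY1 rank was shared with these groups. For SP1 the median rank was 8.56% (11.3% over all genes), for NRF1 14.4% (18.1%) and for ZNF143 31.6% (37.96%). Among the 29 genes with all 4 factors, YY1 was the best-ranked list at 18 (62.1%, beside 46.2% of all genes with all 4). NRF1 was best-ranked at 6 (20.7%, beside 16.4%) and SP1 at 4 (13.8%, beside 28.7%). ZNF143 was so at 1 (3.45%, beside 8.58%), TIMM21 (1.50%, beside 1.51% for YY1). These percentages depend on list length and favor the longer lists, SP1 and YY1. Best-ranked lists were not compared at equal length, and genes said below to be led by a list rest on the same percentages.

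**Figure D2:**
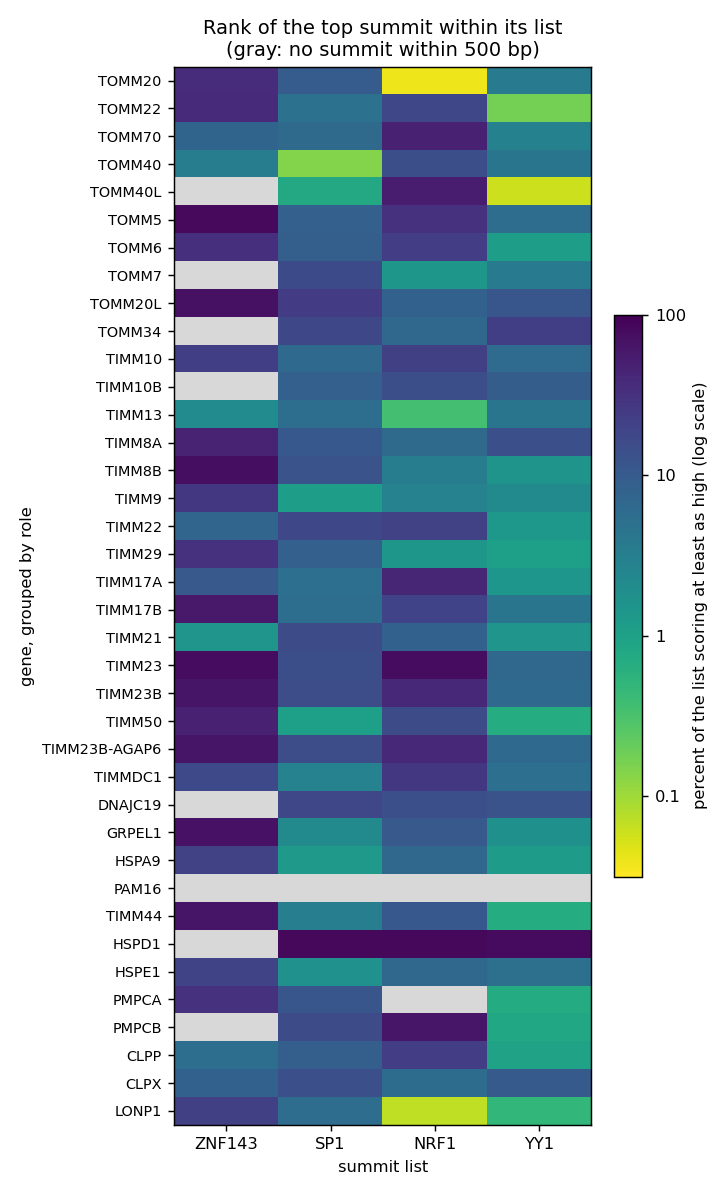
Rank of each gene's top summit in each list (columns), as the percentage of the list scoring at least as high, on a log color scale from dark (low score) to yellow (high score), with gray where no summit lay within 500 bp. Rows are the 38 genes by role. The YY1 column is the most evenly light, with a median of 3.73%, and the brightest cells are NRF1 at TOMM20 (0.0383%) and LONP1 (0.0689%) and YY1 at TOMM40L (0.0591%).

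The TOM receptors, which recognize precursor proteins at the outer membrane, all had all 4 factors, with NRF1 the best-ranked list at TOMM20 and YY1 at TOMM22 and TOMM70. TOMM20, the presequence receptor (chromosome 1, 235109341 to 235128837, minus strand), had the highest NRF1 score of the 38 genes, 23193 at offset −100, a rank of 0.0383%. Its ZNF143 summit lay 5 bp away, at −105, with a score of only 26.6 (35.6%). SP1 scored 238 at −23 (9.69%) and YY1 403 at −201 (3.75%). TOMM20 thus combined the best NRF1 rank of the set with lower ranks of the other factors.

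TOMM22, the central receptor that also organizes the complex (chromosome 22, 38681957 to 38685421, plus strand), was led by YY1 instead, with a score of 6383 at 52 (0.171%), inside its coding exon. ZNF143 (23.3 at −9, 38.1%) and SP1 (489 at −8, 4.76%) had their summits 1 bp apart just upstream, and NRF1 scored 49.7 at −41 (17.8%). TOMM70, the receptor for carrier precursors and other proteins with internal signals (chromosome 3, 100363431 to 100401089, minus strand), was one of the genes with a high ZNF143 score, 3361 at −46 (7.45%). Its YY1 summit scored 536 at −9 (2.92%), SP1 391 at −316 (6.12%), and the best of its 3 NRF1 summits only 6.40 at −197 (48.4%).

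Of the channel gene and the small TOM subunits, 3 of 5 had ZNF143 and all 5 had the other factors. TOMM40, which encodes the channel itself (chromosome 19, 44890569 to 44903689, plus strand), had the highest SP1 score of the 38 genes, 4049 at 320 (0.142%), and the third highest ZNF143 score, 8004 at −10 (3.35%). YY1 (337 at −6, 4.41%) lay 4 bp from ZNF143, and NRF1 had summits of 91.1 at 447 (14.4%) and 66.1 at 97 (16.1%). The top ZNF143 and YY1 summits thus lay at the 5′ end of the gene record, and the top SP1 and NRF1 summits farther in. Measured from the canonical 5′ end, 685 bp downstream, the top ZNF143 summit was a different, weaker one of 636 at −22, and the top SP1 summit another of 4461 at −122.

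TOMM40L, a paralog of TOMM40 (chromosome 1, 161225939 to 161230746, plus strand), had the opposite arrangement. It had no ZNF143 summit, the nearest being 23646 bp away, and the highest YY1 score of the 38 genes, 11163 at 101 (0.0591%). Its SP1 score of 1798 at −35 (0.771%) was the second highest, and NRF1 was weak (5.72 at −9, 52.6%). Among the small subunits that stabilize the channel, TOMM7 had a high NRF1 score (8806 at −25, 1.41%) and its nearest ZNF143 summit 1325 bp away. TOMM5 had the lowest ZNF143 score of the 30 genes with one, 4.86 at 36 (80.5%), and TOMM6 was led by YY1 (1593 at 43, 1.13%).

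TOMM40 was the only gene whose top ZNF143 summit lay within 50 bp of a match to CCCANNATG. These are letters of the downstream portion of the known ZNF143 binding motif (N is any base, and both strands were searched). The share, 1 of 30 genes (3.33%), stood beside 5.39% of all genes with a ZNF143 summit. TOMM40 held 3 copies, at −129, −60 and 0, all on the strand opposite to the gene. The last of them lay 10 bp from the ZNF143 summit. They are shown because no other of the 38 promoters held more than 1 copy of this motif. The motif letters are in capitals, and the hg38 windows on the minus strand are chr19:44890425-44890454, chr19:44890494-44890523 and chr19:44890554-44890583.
TOMM40 at −129: tctcccattaCCCATCATGcctctgcccca
TOMM40 at −60: cctttcgttaCCCATCATGcctcttgttcc
TOMM40 at 0: ctcctcgttaCCCACAATGccctcatcacc
The other genes with this motif within 500 bp were TIMM23, TIMM23B and TIMM23B-AGAP6, where it lay 223 to 272 bp from the ZNF143 summit. In all, 4 of 38 promoters held it (10.5%), beside 14.2% of all promoters.

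Of the remaining TOMM symbols, 1 of 2 had ZNF143. TOMM20L, a paralog of TOMM20, had a low ZNF143 score (6.95 at 118, 68.9%) and was led by NRF1 (803 at −74, 8.21%). TOMM34, a cytosolic co-chaperone for import, had no ZNF143 summit, and its SP1 (104) and NRF1 (1653, 6.53%) summits fell on the same base, at −60. Its YY1 score of 52.3 (22.6%) was low for this set.

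The small TIM chaperones, which shield hydrophobic proteins in the space between the membranes, had ZNF143 at 5 of 6 genes and the other 3 factors at all 6. TIMM13 (chromosome 19, 2425625 to 2427586, minus strand) stood out for having high scores in both ZNF143 (11490 at −52, 2.07%) and NRF1 (14078 at −287, 0.352%), at positions 235 bp apart. YY1 (336 at −40, 4.43%) lay 12 bp from ZNF143, and SP1 scored 439 at −98 (5.39%). Its partner in the same chaperone complex, TIMM8A, had a low ZNF143 score (15.5, 45.6%) and an NRF1 score of 1893 (6.24%). TIMM8B had the lowest ZNF143 score of the chaperones (6.00, 73.4%), with NRF1 at 4943 (3.44%) and YY1 at 1149 (1.53%).

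TIMM9 and TIMM10, the subunits of the chaperone for carrier proteins, differed from one another. TIMM9 had high SP1 (1453, 1.13%) and NRF1 (5868, 2.83%) scores, with its YY1 and ZNF143 top summits 1 bp apart at 8 and 9. TIMM10 ranked at 6.04% for YY1 (243), 6.39% for SP1 (376), 21.8% for NRF1 (29.4) and 22.2% for ZNF143 (94.4), with no list in the top 1%. TIMM10B, a chaperone subunit held at the TIM22 complex, had its nearest ZNF143 summit 122112 bp away, the largest such distance of the 38 genes, while its SP1 and YY1 summits lay 1 bp apart at −66 and −65.

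The TIM22 complex, which inserts carrier proteins into the inner membrane, had all 4 factors at both of its genes. TIMM22, its channel (chromosome 17, 997129 to 1003671, plus strand), had the fifth highest ZNF143 score, 3484 at −189 (7.30%), and a YY1 score of 1294 at −14 (1.37%). SP1 scored 103 at −109 (17.6%) and NRF1 33.0 at −329 (20.9%), so its 4 top summits were spread over most of the region upstream. TIMM29, a further subunit, was led by YY1 (1702 at 1, 1.05%) and NRF1 (8839 at −134, 1.39%), with ZNF143 at 36.6 (31.3%).

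All 6 genes of the TIM23 complex, the route for presequence proteins, had all 4 factors, with ZNF143 scores from the highest of the set down to near the bottom. TIMM21, which links TIM23 to the TOM complex (chromosome 18, 74148523 to 74160531, plus strand), had the highest ZNF143 score of the 38 genes, 13551 at −51 (1.50%). YY1 scored 1161 at −24 (1.51%), NRF1 815 at −157 (8.18%) and SP1 122 at −125 (15.8%). Even this top score did not reach the top 1% of the ZNF143 list, where none of the 30 genes fell, beside 2.34% of all genes with a ZNF143 summit.

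TIMM17A, a channel subunit (chromosome 1, 201955503 to 201970664, plus strand), had ZNF143 at 1441 (−9, 10.6%), YY1 at 1199 (31, 1.47%), SP1 at 453 (−67, 5.21%) and a weak NRF1 summit of 7.91 (−192, 42.1%). Its paralog TIMM17B had a much lower ZNF143 rank (9.83, 58.4%) and its other top summits 257 to 495 bp downstream, nearer the canonical 5′ end. TIMM50, the receptor that takes precursors from the outer membrane (chromosome 19, 39480412 to 39493785, plus strand), likewise had all its summits downstream, ZNF143 14.6 at 322 (47.6%), SP1 1516 at 364 (1.05%), NRF1 78.7 at 380 (15.2%) and YY1 2427 at 443 (0.672%). Its canonical 5′ end is 426 bp downstream of that of the gene record. In both genes these summits lay nearer the canonical start than the start of the gene record. Around the start of the TIMM50 gene record, 4 of 12 sampled 36-base stretches occur at several places in the genome (up to 47). Reads could have been lost there, so a missing summit at that start is uncertain.

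TIMM23, the channel (chromosome 10, 45972489 to 46003742, plus strand), had low ZNF143 (5.43 at −61, 76.8%) and NRF1 (3.28 at −15, 76.8%) scores, with SP1 at 142 (−12, 14.3%) and YY1 at 213 (3, 6.83%). TIMM23B, its near-copy on the same chromosome, was similar, with ZNF143 8.19 (63.6%), NRF1 8.22 (41.0%), SP1 134 (14.8%) and YY1 227 (6.41%). Around these genes' 5′ ends 5 to 7 of 12 sampled 36-base stretches occur at 2 places in the genome, so the authors' mapping could have split or dropped reads there, and these scores are uncertain. TIMM23B-AGAP6, a readthrough gene starting 7 bp from TIMM23B, shares all its summits and adds no independent evidence. TIMMDC1, a complex I assembly factor named for its TIM-like domain, had all 4 factors, with SP1 at 748 (2.84%) and ZNF143 at 242 (17.1%).

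The high-ranking ZNF143 summits of TIMM21 and TIMM13 lay within 50 bp of ACTACA, letters from the upstream portion of the ZNF143 motif. The same held for the protease genes CLPP and CLPX. These 4 were the only genes of the 30 with that sequence within 50 bp of the top ZNF143 summit (13.3%, beside 12.2% of all genes with a ZNF143 summit). The windows, with ACTACA in capitals, are hg38 chr19:6361512-6361541 (minus strand), chr15:65185649-65185678 (minus), chr19:2427644-2427673 (plus) and chr18:74148418-74148447 (minus).
CLPP: ggcggaACTACAgcttccggcgtgctttgc
CLPX: ctcgggACTACAagtcccggcatgcatctc
TIMM13: cggaggACTACAactcccacacgaccgcgc
TIMM21: aaagagACTACAtctcccacaattcaaggc
The matches lay 1, 40, 14 and 34 bp from the respective summits. CLPX, TIMM13 and TIMM21 also matched the longer CTACANNTC, which overlaps ACTACA, and CLPP did not. ACTACA was chosen after the data were seen, so the ranks that follow are a description only. The 4 summits ranked at a median of 3.73% of the ZNF143 list (1.50 to 8.25%), and the 26 without the sequence at 34.0% (3.35 to 80.5%). Over all protein-coding genes the medians with and without it were 4.72% and 44.1%, so the import and quality genes resembled other promoters in both the share with the sequence and its rank. CTACANNTC stood in 5 of 38 promoters (13.2%), the others being TIMM10 and TIMM22, beside 9.38% of all promoters and 15.8% of those with all 4 factors.

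The import motor, which pulls precursors through TIM23, had ZNF143 at 3 of 5 genes. HSPA9, the mitochondrial HSP70 at its core (chromosome 5, 138553756 to 138575675, minus strand), had SP1 at 1351 (121, 1.27%), YY1 at 1524 (−254, 1.17%), NRF1 at 1644 (−91, 6.54%) and ZNF143 at 119 (129, 20.8%). Measured from its canonical 5′ end, 274 bp downstream, SP1 lay at −153, ZNF143 at −145 and NRF1 at −365. The top YY1 summit from there was a different one, 590 at 96 (2.71%). TIMM44, which docks HSP70 at the channel (chromosome 19, 7926718 to 7943667, minus strand), was led by YY1, with a score of 2392 at 49 in its coding exon (0.686%). SP1 scored 677 at −128 (3.23%), NRF1 268 at −58 (10.8%) and ZNF143 8.36 at 15 (63.2%). GRPEL1, the nucleotide exchange factor for HSP70, had the ZNF143 top summit farthest upstream in the set, at −439 with a score of 7.44 (66.5%), while SP1 (917, 2.21%) and YY1 (991, 1.74%) were high.

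DNAJC19, a J protein of the motor, had its nearest ZNF143 summit 77067 bp away and moderate scores of SP1 (97.8, 18.2%), NRF1 (107, 13.8%) and YY1 (109, 12.7%), all within 71 bp of the 5′ end. PAM16, the J-like protein that regulates the motor (chromosome 16, 4331549 to 4355607, minus strand), had no summit of any list within 500 bp of its gene record's 5′ end. That position lies in sequence of which 9 of 12 sampled 36-base stretches are repeated in the genome. At the canonical 5′ end, 4286 bp downstream, PAM16 had NRF1 at 3897 (−41, 4.21%), with weak SP1 (27.7, 36.1%) and YY1 (24.9, 37.2%) and still no ZNF143.

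HSPD1 and HSPE1, the HSP60 and HSP10 chaperonin genes, are transcribed away from one another on chromosome 2. The HSPD1 gene record (197486584 to 197516737, minus strand) starts 16897 bp upstream of its canonical 5′ end, and at the record's start there were only weak summits, SP1 3.91 (−3, 84.8%), NRF1 2.82 (−68, 83.7%) and YY1 5.26 (−158, 79.1%). ZNF143 was absent there, with the nearest summit 752 bp away. The canonical HSPD1 5′ end lies 300 bp from the 5′ end of the HSPE1 gene record (197500140 to 197503449, plus strand). From that canonical end HSPD1 had the same 4 top summits as HSPE1. These were SP1 at 1099 (1.71%), NRF1 at 1539 (6.66%), YY1 at 285 (5.17%) and ZNF143 at 162 (19.2%). SP1, YY1 and ZNF143 lay within 7 bp of one another, 122 to 129 bp upstream of HSPE1, and NRF1 lay 137 bp downstream of its 5′ end. Measured from the canonical HSPE1 5′ end, 239 bp farther downstream, NRF1 lay 102 bp upstream. The presence of HSPD1 among the genes without ZNF143 thus depended on which 5′ end was used.

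The mitochondrial processing peptidase, which removes presequences, was the role in which neither gene had all 4 factors. PMPCA, its alpha subunit (chromosome 9, 136410630 to 136427992, plus strand), had YY1 at 2311 (75, 0.711%), SP1 at 193 (41, 11.5%) and ZNF143 at 34.5 (35, 31.98%), and its nearest NRF1 summit was 10404 bp away. PMPCB, the catalytic beta subunit (chromosome 7, 103297407 to 103331818, plus strand), had a similar YY1 score of 2050 (81, 0.831%) and SP1 score of 119 (23, 16.01%). It lacked ZNF143, with the nearest summit 47441 bp away, and its NRF1 summit was weak, 4.61 at 133 (61.4%). The subunits of one enzyme thus matched in YY1 and differed in whether ZNF143 or a weak NRF1 summit was listed.

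The 3 protease genes had all 4 factors. LONP1, the main matrix protease (chromosome 19, 5691834 to 5720572, minus strand), had the second highest NRF1 score, 19909 at −32 (0.0689%), and the third highest YY1 score, 3165 at 448 (0.487%) in its coding exon. SP1 (420 at 346, 5.67%) and ZNF143 (105 at 373, 21.5%) lay with YY1, near the canonical 5′ end 426 bp downstream, so that NRF1 stood apart from the other 3. CATSPERD, which encodes a sperm ion channel subunit, starts 65 bp upstream of LONP1 on the opposite strand, and the NRF1 summit lay between the 5′ ends of both.

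CLPP, the proteolytic subunit of CLPXP (chromosome 19, 6361531 to 6370242, plus strand), had its ZNF143 summit on the 5′ end itself, 5034 at 0 (5.40%). SP1 (269 at −8, 8.78%), YY1 (1817 at −22, 0.954%) and NRF1 (25.3 at 32, 23.1%) all lay within 32 bp of it, so CLPP had the 4 factors in a narrow cluster. CLPX, its ATPase partner (chromosome 15, 65148219 to 65185342, minus strand), also had a high ZNF143 score, 2743 at −287 (8.25%), but with the factors spread out. SP1 scored 145 at −147 (14.1%), NRF1 2212 at −103 (5.85%) and YY1 142 at 178 (10.0%).

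**Figure D3:**
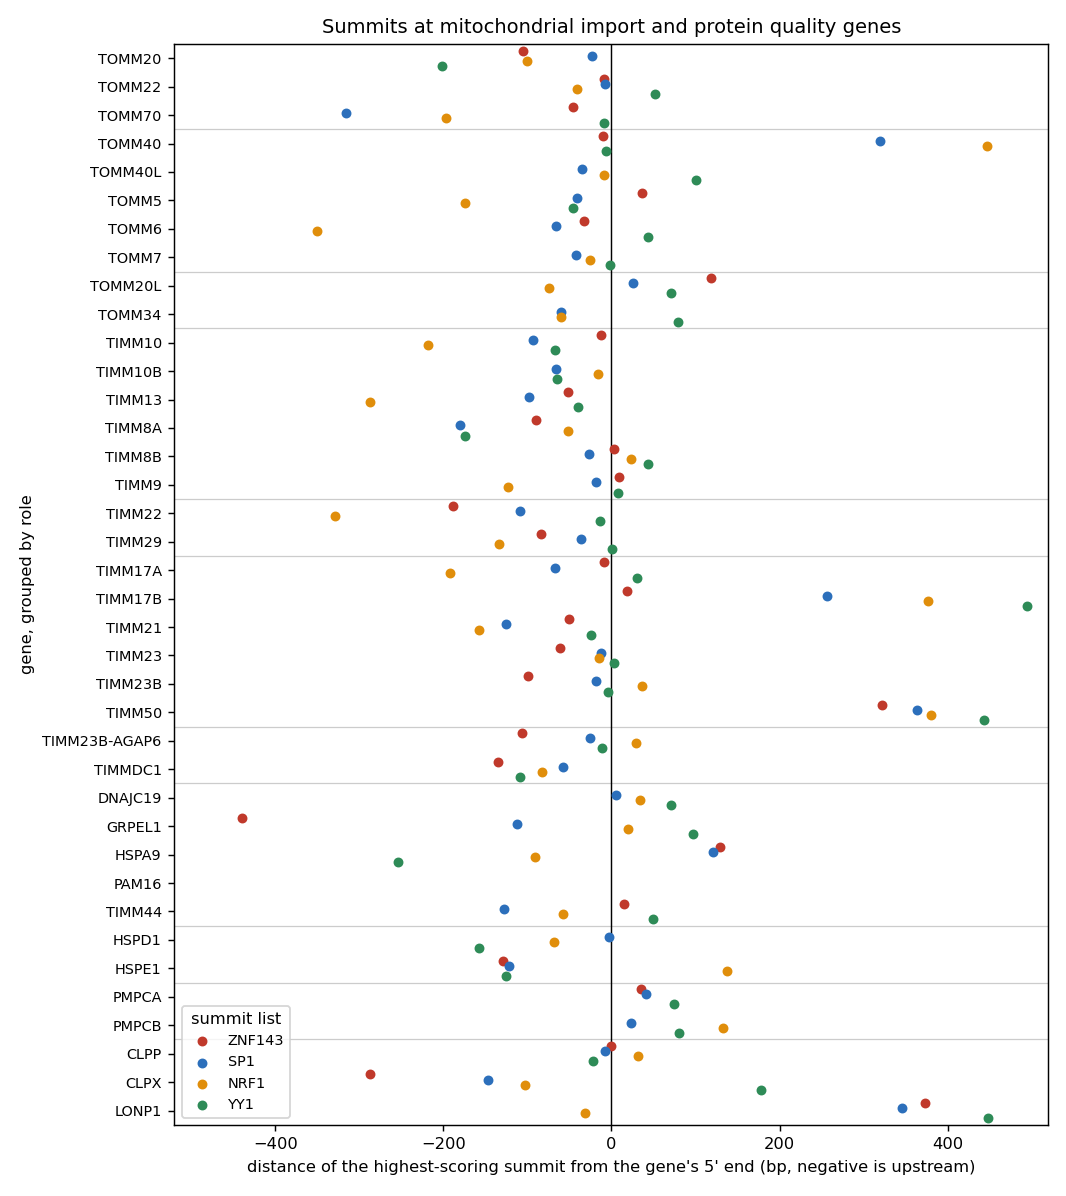
Offset of each gene's top summit from the 5′ end of its gene record in bp (horizontal axis, negative upstream) for the 38 genes by role (rows), with 1 color per list. Most points lie within 100 bp of the 5′ end, CLPP has all 4 together, and TIMM50 and TIMM17B have top summits downstream, where their canonical transcripts begin.

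In position, YY1 differed from the other lists. The median offset of the top YY1 summit was 1 bp, beside 60 bp over all genes, and 26 of 37 (70.3%, beside 35.1%) lay within 100 bp of the 5′ end. It lay in a coding exon at 11 of 37 genes (29.7%), beside 13.1% of all genes with a YY1 summit, among them TOMM22, TOMM6, TIMM44, PMPCA, PMPCB and LONP1. Top summits of ZNF143, SP1 and NRF1 were in a coding exon at 1 gene each (3.33%, 2.70% and 2.78%), beside 4.70%, 2.79% and 3.84% over all genes. Their median offsets were −22.5, −35 and −55 bp, beside −19, −38 and −29 bp over all genes, and 19 of 30 (63.3%), 28 of 37 (75.7%) and 25 of 36 (69.4%) lay upstream, beside 55.9%, 63.2% and 59.7% over all genes. Measured from canonical 5′ ends, the medians were −61 bp for ZNF143, −66.5 bp for SP1, −83 bp for NRF1 and 2.5 bp for YY1, beside −59, −73, −66 and 30 bp over all genes. More than 1 YY1 summit within 500 bp was found at 7 of 37 genes (18.9%), beside 35.9% of all genes.

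Where factors shared a promoter, their top summits lay a median of 62.5 bp (ZNF143 and YY1), 65 bp (SP1 and YY1), 75.5 bp (ZNF143 and SP1), 87.5 bp (SP1 and NRF1), 120 bp (NRF1 and YY1) and 140 bp (ZNF143 and NRF1) apart. Over all genes these medians ran from 55.5 to 153 bp, with ZNF143 and SP1 closest. The 3 pairs with NRF1 were the widest both here and over all genes. Across genes, SP1 and YY1 scores rose together (Spearman's rho 0.46 over 37 genes, 0.52 over all genes with both), while rho for the other pairs was 0.02 to 0.20. Genes are not independent replicates, and the scores of a gene share its promoter's chromatin and base composition.

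The 7 genes with SP1, NRF1 and YY1 but no ZNF143 also had lower ranks of SP1 and YY1. Their median SP1 rank was 16.6%, beside 6.39% at the 29 genes with all 4, and their median YY1 rank was 9.19%, beside 2.92%. For NRF1 both medians were 14.4%. TOMM40L and PMPCB went against this, with YY1 ranks of 0.0591% and 0.831%. HSPD1 is among the 7 through its gene record's start, where SP1 ranked at 84.8% and YY1 at 79.1%. From its canonical 5′ end HSPD1 had all 4 factors, with SP1 at 1.71% and YY1 at 5.17%. The same split was not made over all genes, so the lower ranks cannot be called particular to these genes. The ZNF143 calls nearest the 500 bp limit were LONP1 (373 bp) and GRPEL1 (403 bp) just inside, and HSPD1 (752 bp) and TOMM7 (1325 bp) just outside.

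NRF1 is known to bind a palindrome with the core CGCATGCG, and this core was searched because high NRF1 scores mark several of these genes. It stood in 5 of 38 promoters (13.2%, 5.75 to 27.3%), beside 3.61% of all promoters and 7.01% of those with all 4 factors, at TIMM9, TIMM8B, TIMM13, LONP1 and TOMM7. All 5 were among the 7 highest NRF1 scores of the set. The windows, with the core in capitals, are on the plus strand of hg38 at chr14:58427642-58427671, chr11:112086753-112086782, chr19:2427873-2427902, chr19:5720633-5720662 and chr7:22822955-22822984.
TIMM9: gtttcttggcgCGCATGCGtgttgtgtctc
TIMM8B: agctgtgtttgCGCATGCGcgacgggtgtg
TIMM13: agggcctgccgCGCATGCGcacgaggcacc
LONP1: actcattgatgCGCATGCGcagggcttcag
TOMM7: gcagtagtaggCGCATGCGtggttgcgatc
They lay 2, 8, 14, 43 and 95 bp from the top NRF1 summit. Within 50 bp of that summit the core was found at 4 of 36 genes (11.1%), beside 5.84% of all genes with an NRF1 summit. In NDUF genes this summit share was 16.2%. The core stood in 14.8% of promoters of the other import and quality genes, 7.69% of mitochondrial ribosomal protein genes and 16.7% of NDUF genes. At TOMM20, which had the highest NRF1 score, the core was absent, and the looser CGCANGCG, which contains the core, lay 4 bp from the summit, on the minus strand at chr1:235128919-235128948.
TOMM20: ttcgcccactgCGCAGGCGcaggagccgcg
That looser sequence, added after the data were seen, is common: it stood in 16 of 38 promoters (42.1%), beside 21.3% of all promoters and 36.3% of those with all 4 factors. Within 50 bp of the top NRF1 summit it was found at 8 of 36 genes (22.2%), beside 25.6%.

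YY1 binds sequences around AANATGGCG, and 5 of 38 promoters held it (13.2%, 5.75 to 27.3%), beside 7.54% of all promoters and 15.9% of those with all 4 factors. All 5 genes had their copy on the strand of the gene, as did 953 of the 1505 genes with a match (63.3%). A match lay within 50 bp of the top YY1 summit at 5 of 37 genes (13.5%). This compares with 6.56% of all genes with a YY1 summit and 9.50% of those with all 4 factors. The other mitochondrial groups had higher shares, 20% in the other import and quality genes, 17.6% in mitochondrial ribosomal protein genes and 26.2% in NDUF genes. Their promoter shares, 25.9%, 25.6% and 29.2%, were higher too. At PMPCA, TIMM44 and TIMM50 the ATG in the motif was the annotated start codon, as at 396 (26.3%) of all genes with a match. At HSPA9 and TOMM40L it lay upstream, at −634 and −480 bp from the start codon in genomic distance. The windows, with the motif in capitals, are hg38 chr9:136410656-136410685 (plus strand), chr19:7943635-7943664 (minus), chr19:39480841-39480870 (plus), chr5:138575936-138575965 (minus) and chr1:161225997-161226026 (plus).
PMPCA: gcggagacgcAAGATGGCGgctgtggtgct
TIMM44: acgattctccAACATGGCGgcggcggccct
TIMM50: gcgtcagcgcAAGATGGCGgcctcggcagc
HSPA9: gccacaagacAAGATGGCGccgtcctccag
TOMM40L: gccagattcaAAGATGGCGcttacggccac
The motif lay 0 bp from the YY1 summit at TIMM50 and 22 to 35 bp from it at the others. The shorter AAGATGG was chosen after the data were seen. At least 1 copy lay within 100 bp of the top YY1 summit at 6 of 37 genes (16.2%), beside 9.92% of all genes with a YY1 summit. TOMM40L, with the highest YY1 score, held 2 copies of it there, as did 60 of all genes with a YY1 summit (0.520%). TOMM22, LONP1 and PMPCB had high YY1 scores with no match to AANATGGCG in the promoter or to AAGATGG within 100 bp.

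The GC box GGGCGG, bound by SP1, stood in 32 of 38 promoters (84.2%), beside 72.0% of all promoters and 93.2% of those with all 4 factors. It lay wholly within 50 bp of the top SP1 summit at 13 of 37 genes (35.1%), beside 43.4%. At TIMM44 and TOMM34 a copy lay 0 and 1 bp from the summit, whereas the SP1 summits of TIMM9 and HSPA9 had none that near. Median GC content of the promoter windows was 58.9%, near the 59.2% of all genes and below the 62.0% of genes with all 4 factors.

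The motif with the widest gap in percentage points to other promoters belonged to none of the 4 factors. CCGGAAG, the core bound by ETS-family factors such as GABPA, stood in 22 of 38 promoters (57.9%, 42.2 to 72.1%), beside 20.8% of all promoters and 38.5% of those with all 4 factors. Within 100 bp of the 5′ end it was found at 17 genes (44.7%), beside 10.4% of all genes. TIMM23B and TIMM23B-AGAP6 are counted as separate genes here but hold the same copies. Copies lay at −1 in TOMM34 and TIMM8B, −3 in TIMM10, 4 in TOMM22, −6 in CLPP, −7 in TIMM13 and −16 in TOMM70. The share was 51.9% in the other import and quality genes, 42.3% in mitochondrial ribosomal protein genes and 20.8% in NDUF genes. No ETS factor was measured, and a match shows only that the letters are there.

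**Figure D4:**
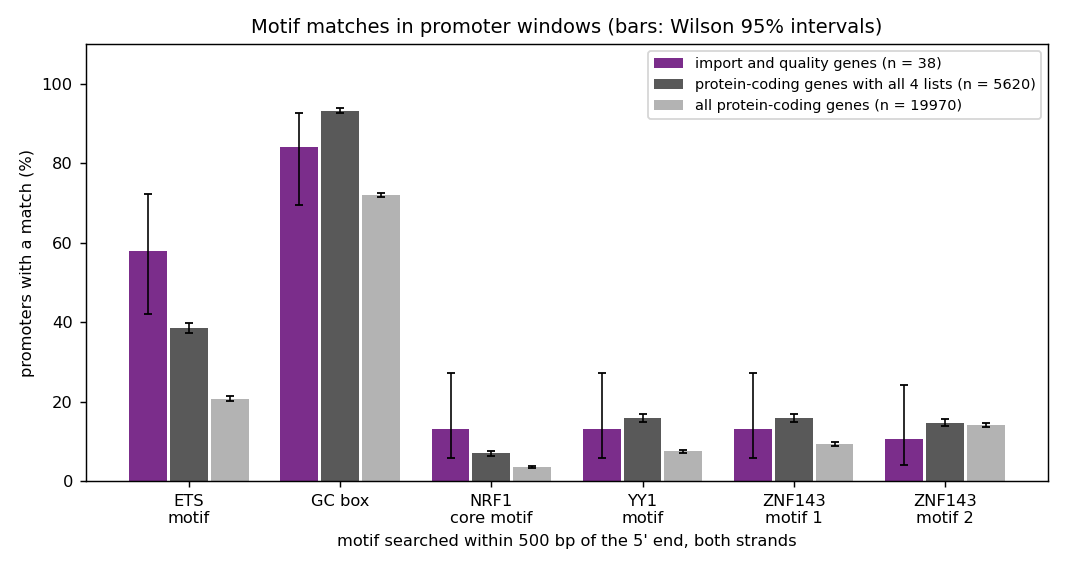
Percentage of promoter windows (500 bp on either side of the 5′ end, vertical axis) with a match to each motif on either strand, for the 38 genes, for the protein-coding genes with all 4 factors and for all protein-coding genes, with Wilson 95% intervals. ZNF143 motifs 1 and 2 are the upstream and the downstream letters of the ZNF143 motif; the ETS motif shows the widest gap, 57.9% beside 20.8%.

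A coding gene on the opposite strand started within 1000 bp of 8 of the 38 genes (21.1%), beside 13.4% of all genes. The closest were PMPCA with ENTR1 (16 bp), TIMM10B with ARFIP2 (22 bp), TIMM8B with SDHD, a subunit gene of complex II (26 bp), and LONP1 with CATSPERD (65 bp). TIMM29 with YIPF2 (130 bp), TOMM70 with LNP1 (443 bp) and TIMM21 with FBXO15 (680 bp) were also divergent, and KIAA0586 starts 146 bp inside TIMM9. The count used 5′ ends of gene records and coding genes only. It thus left out HSPD1 and HSPE1, whose canonical 5′ ends lie 539 bp apart on opposite strands. Long noncoding RNA genes starting on the opposite strand, as near TOMM40 and CLPP, were not counted either. At all these promoters a summit cannot be assigned to either gene alone.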

How the data were processed

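The measurements were 4 lists of summits deposited by the authors, 1 per antibody. The 5th column of the deposited lists is read as a −log10 p-value or q-value from its layout and its minimum of 2.00, and which of them is not stated. Per the submitters' processing notes, cutadapt, Bowtie2, SAMtools 1.16.1, MACS3, bedtools and hg38 were used, with no roles given. Per the labels, the ZNF143 and SP1 lists belong to untreated and treated samples alike, and the NRF1 and YY1 lists were assigned from the antibody in their names. All contigs of the lists are in the hg38 reference, with 0 positions past a contig end.

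Summits were assigned to 5′ ends of GENCODE 44 gene records, motifs were searched in hg38 with 0 mismatches on both strands, and windows of at most 30 bases were printed. Sequence copies were checked with exact 36-base stretches taken within 100 bp of each 5′ end. Python 3.11.15, NumPy 2.4.6, SciPy 1.17.1, pysam 0.24.0 and Matplotlib 3.10.9 were used, and window assignment and motif search were tested on simulated data. Because the lists pool samples, no test was made, and depth and its effect on precision are unknown. The members, gene lists and motifs were chosen with earlier results of these data known. The rule for named genes gave full values for the 5 highest ZNF143 scores, the 3 highest of every other list, genes lacking several lists and 15 genes central to import and quality. All others were given by selected values and ranges. The looser NRF1 sequence, both short sequences searched at ZNF143 and YY1 summits, and the set without the duplicated TIMM23 genes were chosen after the data were seen. Alternatives changed the window (250 and 1000 bp), the 5′ end, the score minimum, the list length and the choice of summit.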

Additional observations from a re-analysis of the deposited data

How the results depend on the processing

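Of 86 alternative values, 83 stayed within 1.5 times the main count or, for medians, within the spread of the genes. These limits are wide, so the 83 are no measure of stability. The median ZNF143 offset counted as unchanged although it went from −22.5 to −61 bp at canonical 5′ ends. So did the count of genes with SP1, which fell from 37 to 25 at equal list lengths. With a window of 250 bp, the genes with all 4 factors fell from 29 to 18 (47.4%, beside 18.9% of all genes), the promoters with AANATGGCG from 5 to 3 and those with CCCANNATG from 4 to 1, since a narrower window holds fewer summits and matches. The count with all 4 was 30 at 1000 bp or at canonical 5′ ends, 20 with the top 50% of each list or at equal list lengths, 28 with overlapping promoters merged and 26 without the 3 TIMM23 genes, the last chosen after the data were seen. No paired analysis was possible because the lists give no value per sample, and for the same reason no replicate could be left out. Depth is unknown, so a missing summit does not show that a factor was absent.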
